A study of Mus musculus with 20 samples.

Results

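The Myc and Pvt1 locus was taken as every entry of the 14 deposited region lists that overlapped chr15:61700000-62250000 (mm9) by at least 1 bp. It held 170 of the 311456 nuclear entries, in 8 of the 14 lists. The window was set by position and not by a rule on measured values, although its members were chosen with earlier results of these data known. The lists come from ATAC-seq, which reads open chromatin from where the Tn5 transposase can insert adapters, on FACS-sorted mouse mammary cells. Peaks of normal cells, from C57BL6J glands, came from 2 samples each of fMaSC (the fetal mammary stem cell population, taken at embryonic day 18), adult basal, adult luminal progenitor and adult mature luminal cells. PY230 cells, a mammary tumour line grown as transplanted tumours in adult C57BL6J hosts, gave 3 luminal SOX10-high and 3 luminal SOX10-low samples. The authors deposited the regions they called open and those they called closed in the SOX10-high cells, here read as a comparison with SOX10-low cells, since the sample descriptions tie the open list to the SOX10-high and the closed list to the SOX10-low samples. All PY230 samples derive from a single line, and SOX10 is a transcription factor best known from the neural crest. The other 6 samples, basal SOX10-high, bulk or cultured PY230 cells and C3-1-TAg tumours, are tied to no list used here by their descriptions, and which samples entered the PY230 comparison is not stated.

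Myc encodes a basic helix-loop-helix transcription factor that drives growth and division, and it lies in a gene-poor stretch whose distal enhancers differ between tissues. Pvt1, the neighbouring long non-coding RNA gene, is a known site of retroviral insertions and translocations in mouse tumours, and in human breast cancer cells its promoter competes with that of MYC for enhancers. No gene annotation of mm9 was at hand. Myc was therefore placed only as near 61.817 to 61.822 Mb, the position given with the window, and is called the Myc interval below. Distances run from its start to the middle of a region, positive in the direction of Pvt1. In RefSeq's annotation of another build (GRCm38.p6) Pvt1 directly follows Myc and Macroh2a3, a transcribed pseudogene, directly follows the start of Pvt1, while the pseudogene Gm18788 precedes Myc. The ends of Pvt1 in mm9 were not placed, so no region is assigned to it. For the same reason the labelled cell types could not be checked at their marker genes.

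Each list combines samples, so values per sample, replicate errors and tests between cell types could not be had, and the depth of each sample is unknown. Fold means the enrichment the authors' peak caller gave a peak over its background, and a rank is the place of that fold within its own list, as a percentage from the top. Lists of different length and depth give different folds and ranks, so neither shows a change between cell types, and a missing peak may lie just under the authors' threshold. Exact (Clopper-Pearson) 95% intervals cover counting error only.

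The locus was rich in open chromatin in every normal cell type. Basal cells had 43 peaks covering 6.49% of the window, against 2.67% of the genome. Luminal progenitors had 34 peaks over 5.14% of the window, against 1.80% of the genome, and mature luminal cells 39 peaks over 4.92%, against 1.66%. In fMaSC 33 peaks covered 3.13% of the window, against 1.82% of the genome. Set among 4788 windows of 550 kb laid end to end along the chromosomes, the locus had more peaks than 91.4% of windows in basal cells, 93.5% in luminal progenitors, 95.3% in mature luminal cells and 85.6% in fMaSC. Peaks were mostly of ordinary strength. The median fold of basal peaks was 9.27 in the window, against 7.98 over the whole list. For luminal progenitors it was 8.73, against 6.86, for mature luminal cells 9.47, against 8.47, and for fMaSC 7.09, against 7.60. Median widths in the window were 675 bp in basal cells, 649 bp in luminal progenitors, 550 bp in mature luminal cells and 435 bp in fMaSC, close to the 678, 608, 561 and 457 bp of the whole lists.

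**Figure D1:**
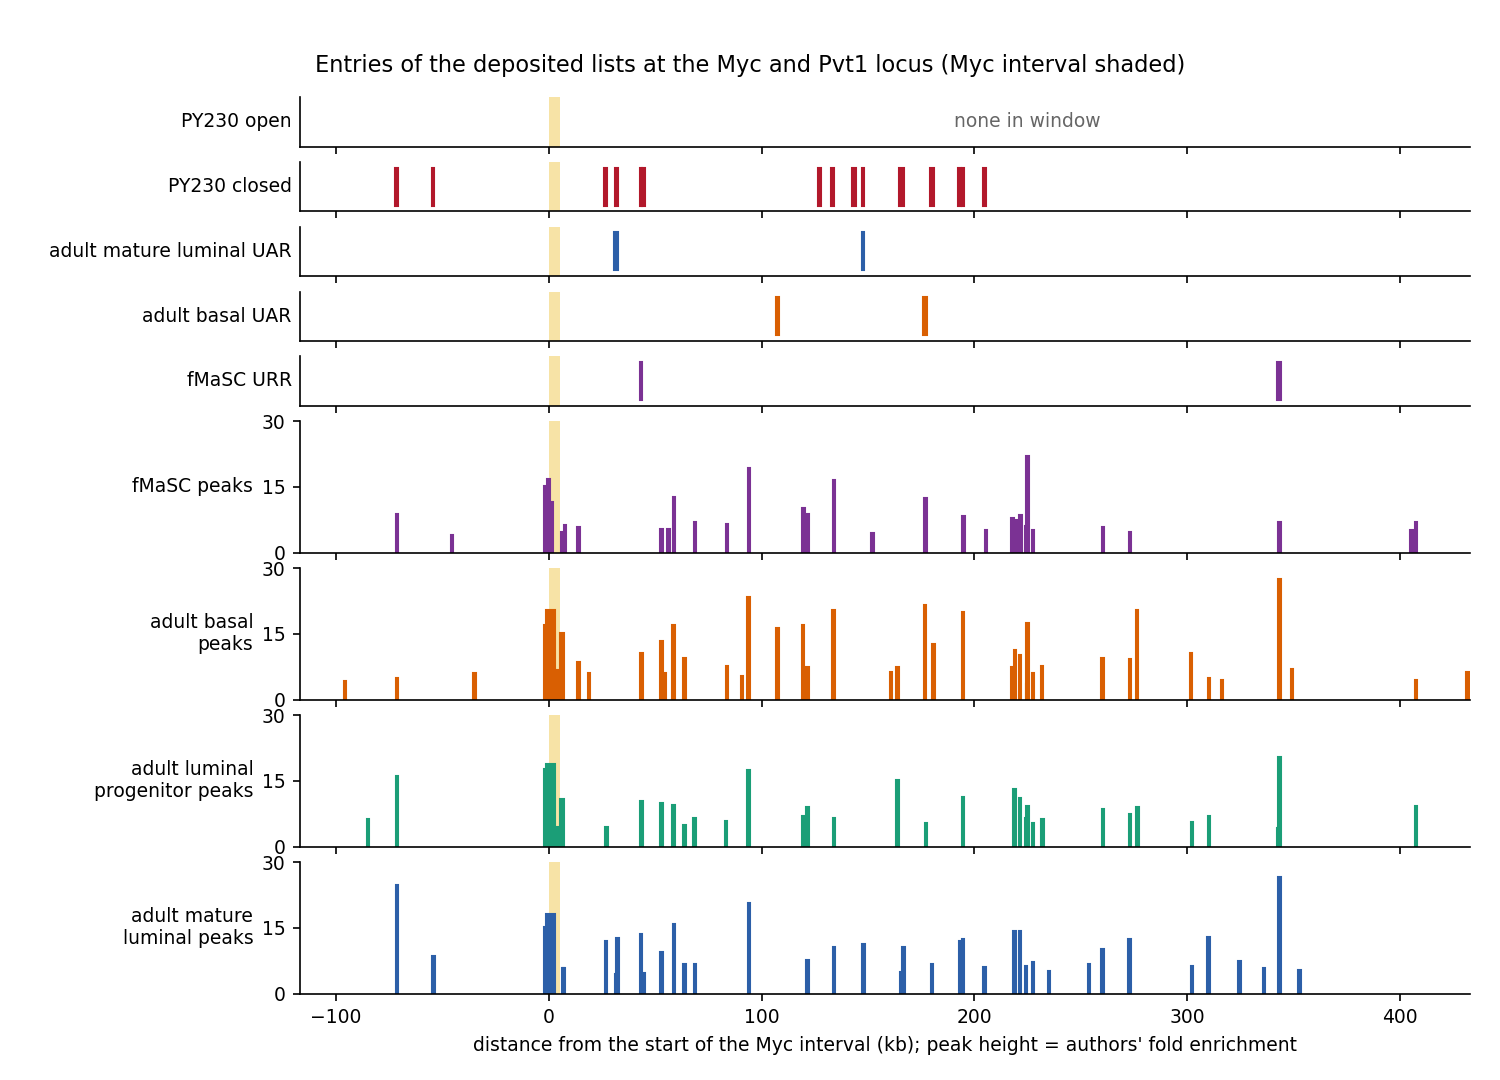
Entries of the lists by distance from the start of the Myc interval (kb), with the interval shaded; rectangles in the upper 5 tracks are regions, and bar height in the lower 4 tracks is the authors' fold enrichment of each peak, narrow entries being drawn at a minimum width. All 15 PY230 closed regions lie between -71.6 and 204.8 kb, and no open region is present. The Myc interval holds peaks of every normal type and no closed region. With only 2 merged regions there, this cannot be set against the 11.0% closed over the genome.

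Over the start of Myc, 3 adult cell types shared an unusually broad peak. The basal peak ran from 61815578 to 61819969 (4392 bp, fold 20.5). The luminal progenitor peak ran from 61815629 to 61819964 (4336 bp, fold 18.9), and the mature luminal peak from 61815697 to 61819885 (4189 bp, fold 18.2). By width these peaks ranked 55 of 61584 in the mature luminal list, 83 of 60030 in the luminal progenitor list and 151 of 80294 in the basal list, and each was the widest of its list in the window. By fold they were strong without being extreme, within the top 6.33% of the luminal progenitor list, 9.62% of the basal list and 13.3% of the mature luminal list. In fMaSC the stretch was split into 3 peaks. The first began upstream of the interval, from 61814611 to 61816207 (1597 bp, fold 15.2), and the others ran from 61816318 to 61817520 (fold 16.7) and from 61817902 to 61819046 (fold 11.6). The adult types had a separate peak just upstream, from 61814520 to 61815367 in basal cells (fold 17), while that of luminal progenitors had a fold of 17.7 and that of mature luminal cells a fold of 15.2. All of these merged into a region of 5458 bp. How far the split of fMaSC peaks follows depth was not tested, and fMaSC peaks were also narrower over the whole list.

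A pair of smaller sites lay at the far end of Myc and just past it. From 61820552 to 61821494, inside the interval, basal cells had a peak of fold 6.68 and luminal progenitors a peak of fold 4.57, while mature luminal cells and fMaSC had none. From 61822184 to 61824306 all 4 types had peaks. The basal peak there had a fold of 15.1 over 1891 bp and the luminal progenitor peak a fold of 10.8 over 1985 bp. Mature luminal cells had a pair of peaks of about 200 bp with a fold of 5.73 each, and fMaSC had 3 short peaks with folds of up to 6.33. The site past Myc was thus a broad peak in basal cells and luminal progenitors, and a set of short, weak peaks in the other types.

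Merging the peaks of all types gave 66 regions, of 128800 over the genome. Of these, 16 had a peak in all 4 cell types (24.2%, interval 14.5 to 36.4%), close to the 21.7% of all merged regions. Mature luminal cells alone held 15 regions (22.7%, 13.3 to 34.7%), against 12.2% over the genome. Basal cells alone held 11 (16.7%, against 15.5% over the genome), fMaSC alone 5 (7.58%, against 13.5%) and luminal progenitors alone 2 (3.03%, against 4.76%). The intervals count close neighbours separately. With gaps of up to 500 bp merged, mature luminal cells alone held 11 of 59 merged regions. With only peaks at or above the median fold of their list, the count was 6 of 34. No share over the genome is given at either setting, so these counts cannot be set against the genome.

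The strongest of the shared regions lay 93.9 kb past the start of Myc, from 61910243 to 61911608. Basal cells had a fold of 23.5 there, mature luminal cells 20.7, fMaSC 19.2 and luminal progenitors 17.5, and each peak was within the top 10.1% of its list. The region over the start of Myc came next, by the mean of the 4 ranks. The third lay 343.4 kb away, from 62159691 to 62161159, and was the strongest peak of the window in the 3 adult types. There the fold was 27.6 in basal cells (top 1.74% of the list), 26.7 in mature luminal cells (top 2.88%) and 20.4 in luminal progenitors (top 4.70%). In fMaSC the fold was 7.09, at 54.2% of the list from the top. The fourth, at 58.4 kb (61874957 to 61875794), had folds of 17 in basal cells, 15.9 in mature luminal cells, 12.7 in fMaSC and 9.56 in luminal progenitors. The fifth, at 194.6 kb (62011018 to 62012111), had folds of 20 in basal cells, 12.5 in mature luminal cells, 11.2 in luminal progenitors and 8.36 in fMaSC, and was closed in SOX10-high PY230 cells.

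**Figure D2:**
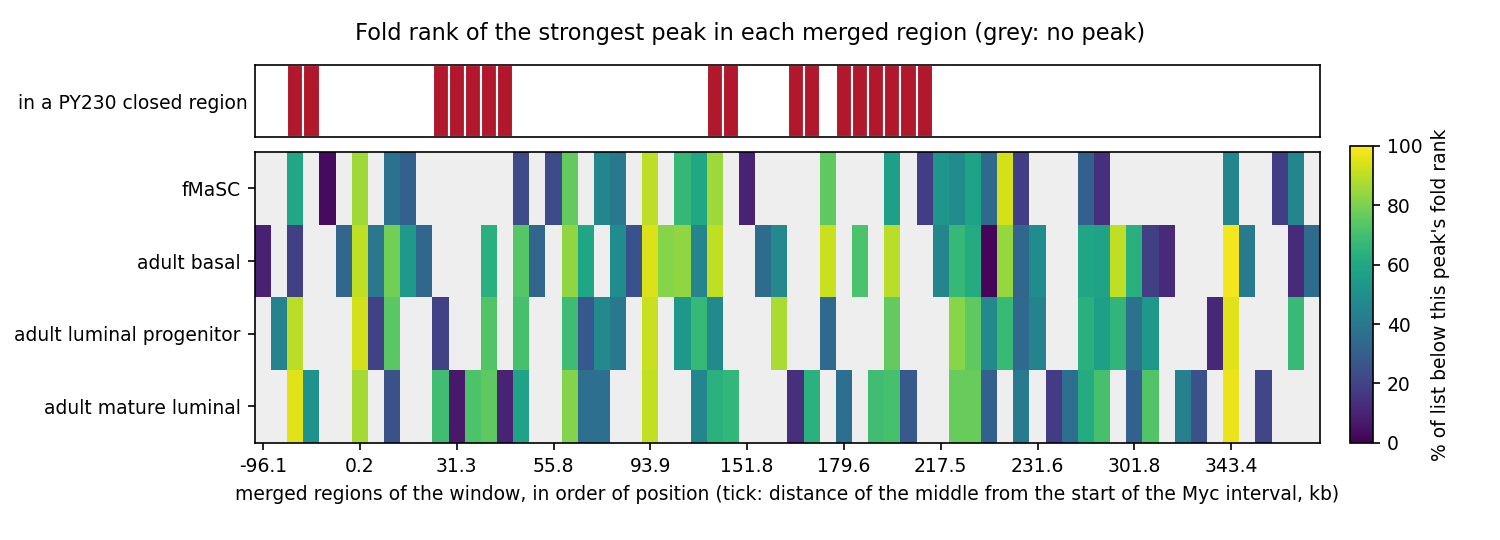
Each column is one of the 66 merged regions in order of position, each row of the lower panel a cell type, and colour the share of that type's list below the fold rank of its strongest peak there (grey, no peak); red marks in the upper panel are the 17 regions in a PY230 closed region. The region at 93.9 kb is bright in every row, whereas that at 343.4 kb is bright in the 3 adult rows and of middle rank in fMaSC.

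Some strong peaks lay outside the 5 shared regions of best mean rank. The strongest fMaSC peak of the window, at 224.9 kb (62041394 to 62042399), had a fold of 22.0 and was in the top 6.58% of its list. Basal cells and luminal progenitors had peaks there too, with folds of 17.5 and 9.35, while mature luminal cells had none within it. Their nearest peak (62040748 to 62041120, fold 6.23) belonged to a neighbouring merged region of all 4 types, which is joined to this site when gaps of up to 500 bp are merged. At 276.3 kb basal cells had a peak of fold 20.5 and luminal progenitors one of 8.94, with none in the other types. A peak of fold 15.2 in luminal progenitors at 163.8 kb coincided with a basal peak of 7.54. The densest stretch held 6 merged regions between 217.5 and 227.3 kb, among them the fMaSC maximum. At 218.9 kb, in the same stretch, every type had a peak, with a mature luminal fold of 14.2, a luminal progenitor fold of 13.1, a basal fold of 11.4 and an fMaSC fold of 7.34. Upstream of the Myc interval, in the shorter part of the window, lay 6 merged regions. The one at -71.6 kb (61744915 to 61745850) was the second strongest mature luminal peak of the window, with a fold of 24.7 (top 4.33%). Its fold was 16.2 in luminal progenitors (top 10.5%), 8.86 in fMaSC and 4.96 in basal cells (81.0% from the top).

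The authors' UAR and URR lists name regions that set a normal cell type apart, the abbreviations being unexpanded in the labels. The locus held 2 basal UARs, 2 mature luminal UARs and 2 fMaSC URRs, and no entry of the other 5 such lists. Having none was the usual outcome for those 5. No fMaSC UAR lay in 79.4% of windows, no mature luminal URR in 83.7% and no luminal progenitor UAR in 94.3%. No basal URR lay in 98.6% of windows and no luminal progenitor URR in 99.5%. Of all windows, 75.1% held fewer than 2 basal UARs and 83.2% fewer than 2 mature luminal UARs. Few merged regions overlapped any of them. Basal UARs met 2 of the 66 merged regions, against 4.80% over the genome, and mature luminal UARs met 3, against 2.95%. The fMaSC URRs met 3, against 0.220%. Only 4 of the 4788 windows held more than 2 fMaSC URRs, and 95.5% held none.

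The basal UAR from 61923701 to 61925000 (107.4 kb, score 1574, rank 2657 of 5144) held a basal peak of fold 16.4 and no peak of another type. It was the strongest basal-only site of the locus. The other, from 61992801 to 61994600 (176.7 kb, score 1769, rank 2397), held a basal peak of fold 21.6, an fMaSC peak of 12.4 and a luminal progenitor peak of 5.40, but no mature luminal peak. Neither was in a PY230 list. The mature luminal UARs, from 61847801 to 61849600 (31.7 kb, score 1590, rank 1478 of 3282) and from 61964101 to 61965300 (147.7 kb, score 677, rank 2918), held mature luminal peaks alone. Their strongest folds were 12.7 and 11.2, and both sites were closed in SOX10-high PY230 cells. The share of all basal or mature luminal UARs in a PY230 list was not computed, so these counts cannot be set against it. Over the genome, 42.8% of merged regions with a mature luminal peak alone were closed.

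The 2 fMaSC URRs marked sites with peaks in all 3 adult types. That from 61859601 to 61860600 (43.1 kb, score 634, rank 184 of 242) had no fMaSC peak, while mature luminal cells had a fold of 13.7, luminal progenitors 10.4 and basal cells 10.6. The other, from 62159301 to 62161300 (score 1334, rank 101), is the site at 343.4 kb described above, where fMaSC had a peak of fold 7.09 covering 25.1% of the region while the basal peak covered 73.5%.

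In luminal PY230 cells the locus was listed as closed at many sites in the SOX10-high cells and as open at none. It held 15 closed regions, covering 3.69% of the window against 0.689% of the genome, and 0 open regions. Of the 4788 windows, 65 (1.36%) had at least 15 closed regions, and the highest count was 33. Having no open region was common: 3115 windows (65.1%) held none, as did 42 of the 65 with at least 15 closed regions. Of 66 merged regions, 17 were in a closed region (25.8%, 15.8 to 38%), against 11.0% over the genome. None was in an open region, against 1.88% over the genome. By the limit of 3 counts that a count of 0 allows, the share could be up to 4.55%, and the exact interval runs to 5.44%. Neighbouring regions are not independent of each other.

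The count of closed regions is read beside the many mature luminal peaks of the locus, since such peaks mark most closed regions. Among the 272 windows whose number of mature luminal peaks was within 5 of the 39 here, the median was 8 closed regions (range 0 to 33), 26 had at least 15, and 109 had no open region. The nearest open regions lay 2438.5 kb upstream of Myc and 1684.8 kb downstream. The stretch between them, from 59378501 to 63506800, was 4.13 Mb long and held 207 merged regions and 32 closed regions. Of the 3188 stretches between neighbouring open regions of a chromosome, 110 (3.45%) were longer, and the median was 0.260 Mb. Each stretch counts once there, whereas a fixed position falls more often in a long stretch than in a short one. The 3.45% is therefore not the share of positions in a longer stretch, which is higher. In that stretch basal cells had 135 peaks, fMaSC 125, luminal progenitors 111 and mature luminal cells 91. Over the genome there were 30.4 basal, 30.3 fMaSC, 22.8 luminal progenitor and 23.3 mature luminal peaks per Mb, and 5.73 closed regions. The peak counts of the 4.13 Mb stretch lie near those rates, so they are not particular to the locus.

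**Figure D3:**
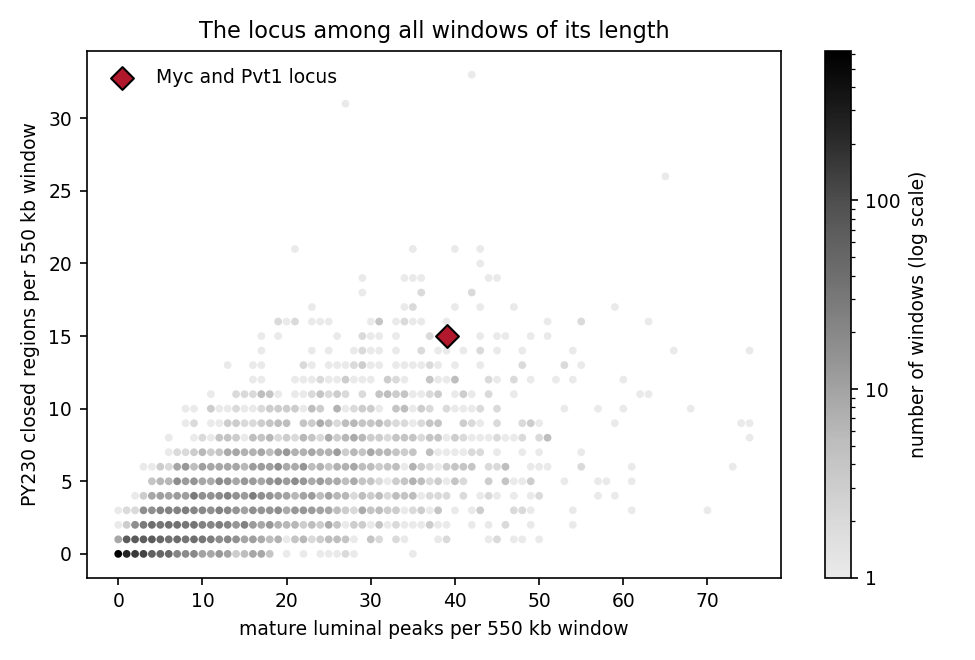
Each point stands for the windows of 550 kb with a given number of mature luminal peaks (horizontal axis) and PY230 closed regions (vertical axis), shaded by how many windows share it on a log scale. The Myc and Pvt1 locus, with 39 peaks and 15 closed regions, sits in the upper part of the windows with a like number of peaks, whose median is 8.

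The closed regions spanned 277.7 kb, from 61744801 to 62022500. None overlapped the Myc interval, but only 2 merged regions lay there. That is too few to set against the 11.0% of merged regions closed over the genome. The nearest closed regions ended 54.2 kb upstream and began 21.1 kb downstream of the interval. Upstream of Myc there were 2, and the other 13 lay between 26.8 and 204.8 kb. Past 62022500, the last 227.5 kb of the window held 0 closed regions although mature luminal cells had peaks in 14 merged regions there, among them their strongest. Between Myc and that point 13 of the 20 merged regions with a mature luminal peak were closed. In the whole window 15 of 37 such regions were closed (40.5%, 24.8 to 57.9%), against 22.3% over the genome. This border was drawn from the closed regions themselves, so the contrast carries no test. Mature luminal peaks in closed regions had a median fold of 10.7 (15 peaks, range 4.48 to 24.7), and the other mature luminal peaks of the window 7.60 (24 peaks, range 5.23 to 26.7), with wide overlap.

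By the cell types that hold a peak, the closed regions of the locus were much like the whole closed list. A mature luminal peak lay in 13 of 15 (86.7%), against 83.1% of the 15108 closed regions, and a peak of mature luminal cells alone in 6 (40.0%), against 40.7%. An fMaSC peak lay in 4 (26.7%), against 25.6%. Basal and luminal progenitor peaks lay in 5 each (33.3%), against 30.1% and 31.4%. No normal peak was present in 2 of 15, at 127.2 and 143.5 kb, the same 13.3% as in the whole list. Read from the normal side, 10 of the 15 regions with a mature luminal peak alone were closed (66.7%, 38.4 to 88.2%), an interval that includes the 42.8% of all such regions. Among the 10, those at 31.3 and 32 kb lay in the same closed region, as did those at 165.2 and 166.4 kb. The interval counts each separately and takes no account of this. The 5 that were not closed all lay past the last closed region, between 234.7 and 352.3 kb, and were weak peaks with folds of 5.23 to 7.47. Of regions with a peak in all 4 types 3 of 16 were closed (18.8%, 4.05 to 45.6%), against 7.33% over the genome. These were the sites at -71.6, 133.7 and 194.6 kb.

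**Figure D4:**
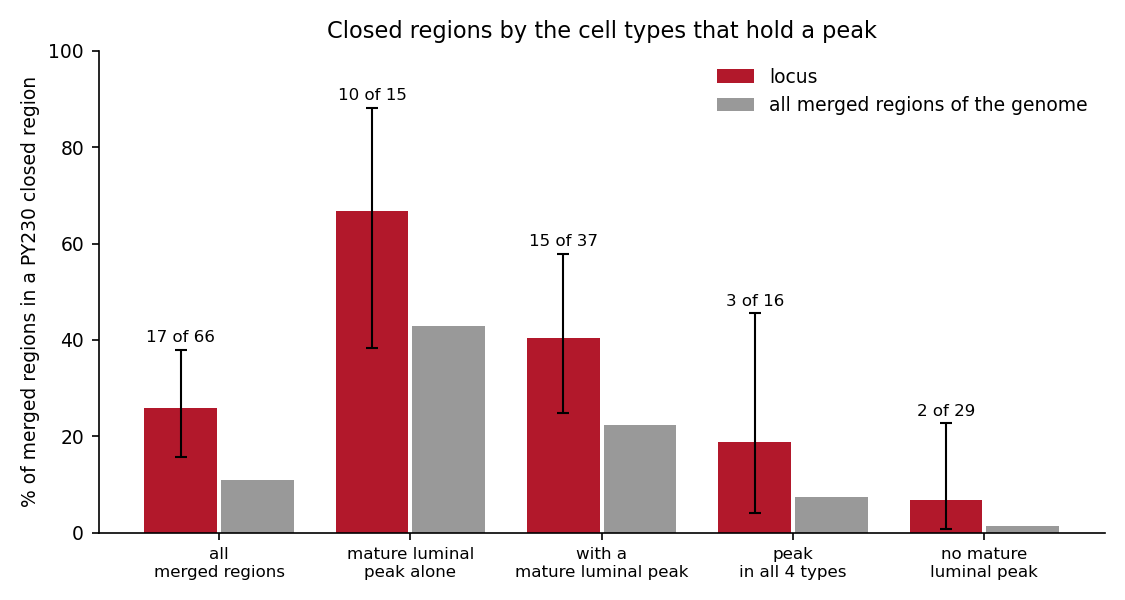
Percentage of merged regions in a PY230 closed region, for the locus (red, with exact 95% binomial intervals and counts) and for the genome (grey), by the cell types that hold a peak. Merged regions that lie in the same closed region are counted separately. At the locus, both closed merged regions without a mature luminal peak share their closed region with a separate mature luminal peak. The locus is higher in each class, but the interval includes the genome's share in the mature-luminal-only class, in the class with all 4 types and in the class without a mature luminal peak.

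The authors' scores put these regions across the closed list, with ranks from 13.8% to 100% from the top and 6 of 15 ranked above the list's median. The highest score, 493, belonged to the region at 26.8 kb (61843101 to 61844400), where mature luminal cells had a peak of fold 12 and luminal progenitors one of 4.57. The next, 409, was the mature luminal UAR site at 31.8 kb (61848101 to 61849400). Scores of 237 at 193 kb (62009101 to 62010900), 210 at 133.5 kb (61949801 to 61951200), 170 at 44.6 kb (61861001 to 61862200) and 149 at -54.6 kb (61762001 to 61762800) followed. Of these 4 regions, all but that at 133.5 kb held a mature luminal peak alone. At 133.5 kb every type had a peak, of fold 20.5 for basal, 16.5 for fMaSC, 10.7 for mature luminal and 6.44 for luminal progenitor cells.

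The remaining regions scored lower. The site at -71.6 kb scored 48.3, the wide region at 165.7 kb (61981601 to 61983800, 2200 bp) scored 88.4 over a pair of mature luminal peaks, and the region at 204.8 kb scored 81.6 over a mature luminal peak of fold 5.98 and an fMaSC peak of 5.06. The region at 180.3 kb, with a score of 61.0, spanned a mature luminal peak of fold 6.73 and a separate basal peak of 12.7. The second mature luminal UAR site scored 32.7. The lowest score of the locus, 20.7, ranked 15104 of 15108 and was that of the fMaSC URR site at 43.2 kb. The regions without a normal peak scored 32.0 at 127.2 kb and 46.6 at 143.5 kb, and the site at 194.7 kb scored 26.6.

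Which cell types shared bases at the locus was furthest from the genome in a single pair. Basal cells and luminal progenitors had a Jaccard index (shared bases over bases covered by either list) of 0.586 in the window, against 0.449 over the genome. For fMaSC and basal cells it was 0.359 in the window, against 0.446. The luminal progenitor and mature luminal pair had 0.471, against 0.474, and basal with mature luminal cells 0.362, against 0.342. For fMaSC the index was 0.418 with luminal progenitors, against 0.454, and 0.312 with mature luminal cells, against 0.359. A single locus gives these values no error, and the broad adult peak over Myc makes up part of the shared bases of the adult pairs.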

How the data were processed

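The peak lists hold a fold, the ratio of enrichment per peak that the authors' peak caller gave, for peaks called on both samples of a cell type at a q-value of 0.001, per the labels' list names. The UAR, URR and PY230 lists hold a score deposited by the authors on an unstated scale. MACS2 2.1.1, SICER, Bowtie 0.12.8, bedtools 2.20.1, SAMtools 1.3.1, FastQC and the build mm9 are listed in the submitters' processing notes, without roles. How duplicates and repeats were treated, which affects the peaks found, is unstated in these sources.

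Coordinates are mm9 and 1-based. The grid-based lists, whose edges lie on 100 bp steps, were moved by 1 base, and mitochondrial peaks were left out. Peaks were merged where they shared at least 1 bp, and overlap meant at least 1 bp. Windows of 550 kb started at the first base of each chromosome. No test was made, since lists have no replicates. Regions named were all UAR, URR and PY230 entries, the peaks over Myc, the 5 strongest and the widest peak per list, the 5 shared regions of best mean rank and the strongest single-type region, as far as they bear on the account. The members and lists were chosen with earlier results of these data known. Python 3.11.15, numpy 2.4.6 and scipy 1.17.1 were used. Overlaps were tested on simulated data in 20 runs, where all 20 equalled a base-by-base count and bedtools 2.31.1. Promoter sequences of Myc and Pvt1, and motif counts, were not used here.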

Additional observations from a re-analysis of the deposited data

How the results depend on the processing

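Of 117 recomputed values, 78 stayed within 1.5 times (counts) or within their 95% binomial interval (shares), and 39 did not, among them all 12 Jaccard indices, which have no error here and were counted as moved at any change. With peaks at or above the median fold of their list, the window held 23 basal, 21 luminal progenitor, 21 mature luminal and 14 fMaSC peaks in 34 merged regions, of which 5 had all 4 types, 6 mature luminal cells alone, 5 basal cells alone and 1 fMaSC alone. When each list was reduced to its 30015 strongest peaks, the window held 18 basal, 21 luminal progenitor, 20 mature luminal and 9 fMaSC peaks in 30 merged regions, of which 3 had all 4 types, 5 mature luminal cells alone, 3 basal cells alone and 0 fMaSC alone. These settings keep fewer peaks by construction, and no genome shares of these combinations are given, so the counts cannot be set against the genome. The share of mature-luminal-only regions that were closed, an alternative set chosen after seeing the data, was 100% under both (6 of 6 and 5 of 5), against 65.3% and 63.9% over the genome. With gaps of up to 500 bp merged it fell to 54.5% (6 of 11), against 43.4% over the genome. With peaks set to 500 bp it stayed at 66.7% (10 of 15), against 41.4%. For the strongest peaks the Jaccard index was 0.558 for basal cells with luminal progenitors, 0.385 for basal with mature luminal cells, 0.5 for the luminal pair, and 0.345, 0.284 and 0.261 for fMaSC with basal, luminal progenitor and mature luminal cells.

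With peaks set to 500 bp the indices were, in the same order, 0.507, 0.272, 0.378, 0.305, 0.336 and 0.246, and 8 regions had fMaSC alone, and with gaps of up to 500 bp merged, 1 had luminal progenitors alone. When a peak had to cover 50% of a closed region, 7 of 15 held a mature luminal peak, 3 a luminal progenitor peak and 0 an fMaSC peak, and with peaks above the median fold 3 held a luminal progenitor peak. Narrowing the window by 100 kb on each side left 1 fMaSC URR. Widening it, keeping entries wholly inside, or moving the 550 kb windows moved no value past these limits. No paired analysis was possible because each list combines its samples, and for the same reason no replicate could be left out. Presence of a peak depends on sequencing depth, which is unknown here.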
